A study of Mus musculus with 6 samples.

Results

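The endothelial junction genes described here are 8 genes chosen by gene symbol: Pecam1, Icam2, Cdh5, Cldn5, F11r, Jam2, Esam and Tjp1. The platform annotation assigns 16 of the 45281 probes of the array to them, and 14 of these 16, covering all 8 genes, were tested. RNA enriched for endothelium was taken from the carotids of C57Bl/6J mice of wild-type genotype, and 3 Illumina bead arrays were described as stable flow and 3 as disturbed flow. The sample labels also carry the codes e-RCA and e-LCA, read here as right and left carotid, which divide as the flow groups do. Vessel side and flow thus cannot be told apart. No further allele, agent, age or duration of flow is given in the labels. They also do not say how many animals stand behind a sample, or whether the groups come from the same animals. The spread behind each p-value is thus that between samples of 1 group, and it may be technical. The series title links disturbed flow to arterial stiffening through thrombospondin-1, and the comparison below asks whether the endothelial junction genes differ between the flow conditions.

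Endothelial cells are held together by adherens junctions, built on the cadherin Cdh5, and by tight junctions, built on claudins such as Cldn5. Immunoglobulin-type adhesion proteins sit in the same cell borders: Pecam1, Icam2, Esam and the junctional adhesion molecules F11r (JAM-A) and Jam2 (JAM-B). Tjp1 (ZO-1) is the scaffold on the cytoplasmic side that ties tight junction proteins to actin. Junctions set the permeability of the vessel wall and the passage of leukocytes, and Pecam1 and Cdh5 take part in the sensing of shear stress.

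Direction needs care in these data. The descriptions name a scanned array for each sample, and these arrays are grouped here by those descriptions. Each of the 6 processed columns of the series matrix, however, had the rank order of an array of the other described group (rank correlation 1), against 0.345 to 0.759 for its own described array. All signed values below are arrays described as disturbed flow minus arrays described as stable flow. Under the matrix column names each sign turns, and which of the labels is right was not settled by the files. The 3 arrays of a described group also share 1 slide, and the effects of slide and of group cannot be told apart.

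The arrays differed in how much signal rose above background, called at a detection p under 0.05 against negative control beads. Stable flow replicate 2 stood apart, with 9.74% of all probes above background against 19.6% to 35.0% on the other 5 arrays. On that array 7 of the 16 junction probes were above background, against 13 to 15 on the others. Of 28 endothelial markers that are not junction members, 10 were above background there and 22 to 25 on the others. Of these markers 9 were above background on all 6 arrays, Tie1 and Vwf among them, and 3 on none: the VEGF receptor genes Kdr and Flt1, and Gpihbp1, the gene of a capillary lipase carrier. Of 12 smooth muscle markers, only the actin gene Acta2 was above background on all 6 arrays, and 2 were on none. Of 11 fibroblast and adventitia markers, only Dcn was above background on all 6.

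**Figure D1:**
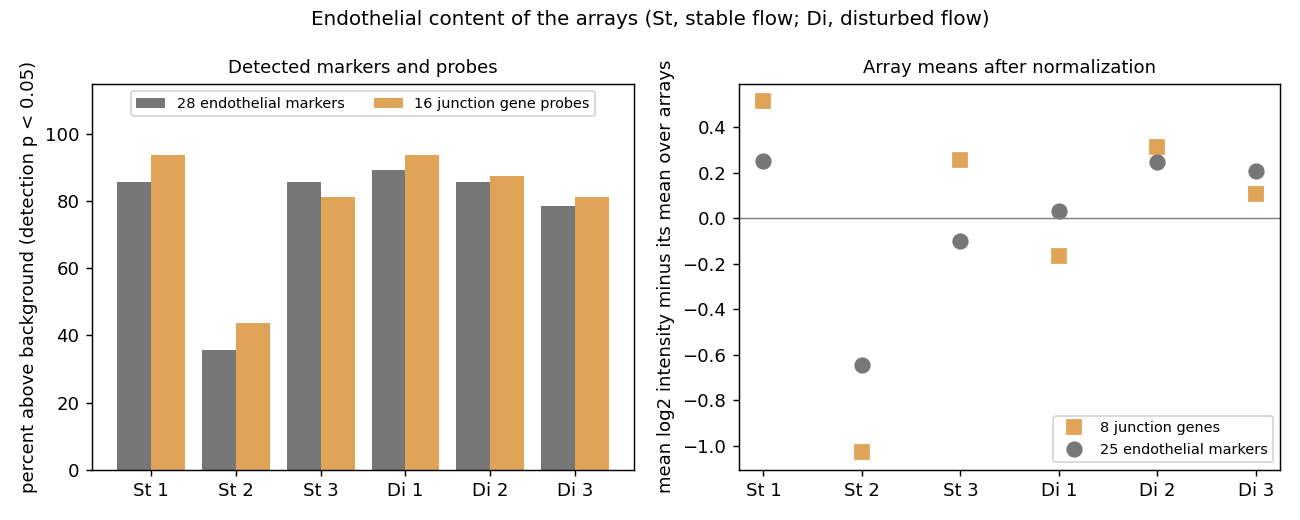
Left, percent of the 28 endothelial markers (grey) and of the 16 junction gene probes (orange) above background on each array; right, mean log2 intensity of the 8 junction genes (squares) and of the 25 tested endothelial markers (circles) minus its mean over the arrays, by array. Stable flow replicate 2 is lowest in both panels, with 7 of 16 junction probes and 10 of 28 markers above background.

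No junction gene passed the test. Of the 14 tested junction probes, 0 had an adjusted p under 0.05 in limma (smallest adjusted p = 0.890), and 0 of all 12546 tested probes did, or 0%. At an unadjusted p under 0.05 there were 0 junction probes, where 2.69% of all tested probes lay, and 0 junction probes had groups that did not overlap, against 9.68% of all. With the probe of highest mean log2 intensity standing for each gene, 6 of the 8 genes were higher on the disturbed flow arrays and 2 were lower, beside 57.4% of all tested probes above 0. The median difference was 0.12 on the log2 scale over the 8 genes and 0.098 over all tested probes.

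That split rested on how the arrays were scaled and on single arrays. Without stable flow replicate 2 it was 2 higher and 6 lower, with a median of -0.28, while all tested probes then had a median of -0.01. It was 7 and 1 (median 0.68) with arrays scaled to a common 75th percentile, 6 and 2 (0.47) with no normalization between arrays, 5 and 3 (0.06) with no background correction, 3 and 5 (-0.15) with cyclic loess and 1 and 7 (-0.16) with array weights. Without disturbed flow replicate 1 it was 4 and 4, without disturbed flow replicate 2 or 3 it was 5 and 3, and without stable flow replicate 1 it was 7 and 1. The median without stable flow replicates 1 and 3 was 0.31 and 0.23. Over all tested probes the median was -0.10 with no normalization, so a difference under that setting is read against that shift. Of all tested probes, 60.8% were higher with arrays scaled to a common 75th percentile, 40.4% with no normalization and 57.1% with no background correction. The share was 51.7% with cyclic loess, 52.2% with array weights and 48.6% to 62.7% when single arrays were left out.

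**Figure D2:**
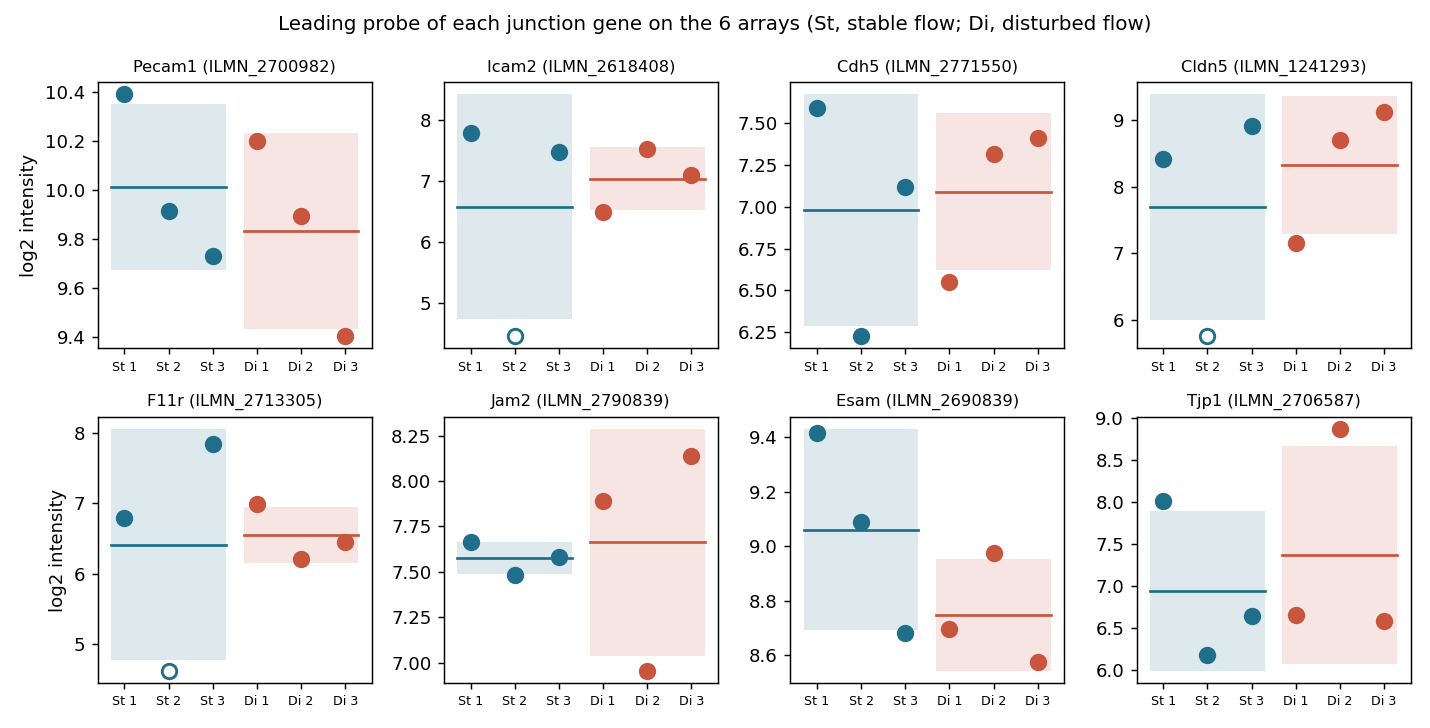
Log2 intensity after normalization (y axis, scaled separately in each panel) of the leading probe of each junction gene on the 6 arrays, stable flow in blue and disturbed flow in red; lines are group means, bands 1 SD (n = 3), and open circles mark arrays where the probe was not above background. Icam2, Cldn5 and F11r have an open circle on stable flow replicate 2, and in every panel the groups overlap.

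Pecam1 encodes the immunoglobulin-type adhesion protein PECAM-1 (CD31) of endothelial cell borders. Its leading probe, ILMN_2700982, had deposited signals of 1787, 211 and 1045 on stable flow replicates 1 to 3 and of 1725, 1169 and 557 on disturbed flow replicates 1 to 3. In every array these signals stood above 99.3% to 99.8% of that array's probes, stable flow replicate 2 included. After normalization the log2 intensities were 10.39, 9.91 and 9.73 under stable flow and 10.20, 9.90 and 9.40 under disturbed flow. The highest array was thus from the stable and the lowest from the disturbed group, and the values between them interleaved. Group means were 10.01 ± 0.34 and 9.83 ± 0.40 (SD, n = 3 each), a difference of -0.18 with a 95% interval of -1.05 to 0.70 (SE 0.37, limma adjusted p = 0.933). The difference was 0.01 without stable flow replicate 1, 0.03 without disturbed flow replicate 3, 0.88 with arrays scaled to a common 75th percentile and 0.67 with no normalization.

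A second Pecam1 probe, ILMN_3147074, was also above background on all 6 arrays. It had 9.18, 9.69 and 8.72 under stable flow and 9.05, 8.98 and 8.97 under disturbed flow, a difference of -0.20 (SE 0.36). The disturbed flow arrays agreed within an SD of 0.046, and the stable flow values lay on both sides of them with an SD of 0.48. Its highest normalized value was on stable flow replicate 2, without which the difference was 0.05. The deposited signal on that array, 186, was the lowest of the 6, against 387 to 927 on the others. That rank thus came with the normalization. The third probe, ILMN_1226690, is annotated to a cDNA clone accession rather than a curated transcript. It was above background on 1 stable and 2 disturbed flow arrays and had a difference of 0.08 (SE 0.33).

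Icam2 encodes ICAM-2, an endothelial ligand of leukocyte integrins found at cell borders. Its 1 probe, ILMN_2618408, had log2 intensities of 7.79, 4.45 and 7.47 under stable flow and 6.48, 7.52 and 7.10 under disturbed flow. Stable flow replicate 2 was lowest, with a signal of 89.5 that was not above background, and disturbed flow replicate 1 was next. The difference was 0.46 with an interval of -1.58 to 2.51 (SE 0.87, limma adjusted p = 0.925), and -0.61 without that array. It was also below 0 with cyclic loess (-0.23), with array weights (-0.28) and with no normalization (-0.02).

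Cdh5 encodes VE-cadherin, the adhesion receptor of endothelial adherens junctions. The leading probe, ILMN_2771550, had 7.59, 6.23 and 7.12 under stable flow and 6.55, 7.31 and 7.41 under disturbed flow. Stable flow replicate 2 and disturbed flow replicate 1 were the low arrays, so each group held 1 low and 2 higher values. The means were 6.98 ± 0.69 and 7.09 ± 0.47 (SD, n = 3 each), a difference of 0.11 with an interval of -0.98 to 1.21 (SE 0.47, limma adjusted p = 0.964). Without stable flow replicate 2 it was -0.27, without disturbed flow replicate 3 it was -0.05, and with cyclic loess it was -0.07. The other probe, ILMN_2866951, gave 7.96, 4.18 and 5.42 against 5.77, 6.63 and 5.78, a difference of 0.21 (SE 0.90). There stable flow replicate 1 was far above the other 4 arrays. Stable flow replicate 2 was far below them, and the probe was not above background on it. Leaving out the low array gave -0.64, the high one 1.09.

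Cldn5 encodes claudin-5, the main claudin of endothelial tight junctions, and had the largest difference among the 8 leading probes. Deposited signals of its 1 probe, ILMN_1241293, were 627, 96.1 and 645 under stable flow and 274, 545 and 439 under disturbed flow. The log2 intensities were 8.41, 5.76 and 8.91 against 7.15, 8.71 and 9.13, and on stable flow replicate 2 the probe was just short of the detection threshold. The low arrays were stable flow replicate 2 and disturbed flow replicate 1, the same 2 arrays as for Cdh5. The difference of 0.64 had an interval of -1.48 to 2.75 (SE 0.90, limma adjusted p = 0.902). Without stable flow replicate 2 it was -0.34 and with array weights -0.31, while without stable flow replicate 3 it was 1.22.

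F11r encodes JAM-A, a junctional adhesion molecule of endothelium, epithelium, platelets and leukocytes. Probe ILMN_2713305 had 6.78, 4.62 and 7.83 under stable flow and 6.99, 6.21 and 6.45 under disturbed flow. Both the highest and the lowest array were described as stable flow, and the 3 disturbed flow values lay between them. The difference was 0.14 with an interval of -1.69 to 1.98 (SE 0.78, limma adjusted p = 0.976). It turned to -0.78 without stable flow replicate 2, where the probe was not above background, to -0.09 without disturbed flow replicate 1, to -0.53 with cyclic loess, to -0.19 with arrays scaled to a common 75th percentile, and to -0.05 with no background correction. Of 8 epithelial markers, 3 were above background on disturbed flow replicate 1, 2 on stable flow replicate 1, 1 on stable flow replicate 3 and 0 on the other arrays. Of 6 platelet markers, Gp9 was above background on all arrays and Pf4 on 1, and the other 4 were on none. The part of these cells in the F11r values was not tested.

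Jam2 encodes JAM-B, a binding partner of other junctional adhesion molecules on vascular endothelium, and is covered by 6 probes. The leading probe, ILMN_2790839, had 7.66, 7.48 and 7.58 under stable flow and 7.89, 6.96 and 8.14 under disturbed flow. Stable flow arrays agreed within an SD of 0.090, stable flow replicate 2 included, and the disturbed flow arrays lay on both sides of them with an SD of 0.62. The difference was 0.09 with an interval of -0.86 to 1.03 (SE 0.40, limma adjusted p = 0.968), and -0.15 without disturbed flow replicate 3. Probe ILMN_2790842 was also lowest on disturbed flow replicate 2 (6.89) and highest on disturbed flow replicate 3 (7.88), and differed by -0.01 (SE 0.37).

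The other Jam2 probes gave different sizes. ILMN_1227559 had 5.96, 4.48 and 5.33 against 5.32, 6.15 and 7.26, a difference of 0.99 with an interval of -0.42 to 2.40 (SE 0.60, limma adjusted p = 0.890). This was the largest difference of any junction probe. It stayed above 0 when single arrays were left out (0.51 to 1.38), and stable flow replicate 2 was not above background there. For ILMN_2592881 the difference was 0.28 (SE 0.52), or -0.05 once disturbed flow replicate 3 was left out. The remaining Jam2 probes, ILMN_2550414 and ILMN_1258831, were above background on 2 and 0 arrays and were not tested. Both are annotated to cDNA clone accessions.

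Esam encodes an endothelial cell-selective adhesion molecule that binds to itself across tight junctions. Probe ILMN_2690839 had deposited signals of 1056, 141 and 558 under stable flow and of 665, 650 and 281 under disturbed flow, all above background. Its log2 intensities were 9.41, 9.09 and 8.68 against 8.70, 8.97 and 8.57. The 2 highest arrays were described as stable flow and the lowest as disturbed flow, with an overlap at stable flow replicate 3. Means of 9.06 ± 0.37 and 8.75 ± 0.20 (SD, n = 3 each) gave a difference of -0.31 with an interval of -1.13 to 0.50 (SE 0.35, limma adjusted p = 0.890). Among the 8 leading probes, Esam alone kept its sign, from -0.50 to -0.15, in all 6 fits that each left out 1 array, but with arrays scaled to a common 75th percentile it was 0.65 and with no normalization 0.44.

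Tjp1 was uneven in another way. Probe ILMN_2706587 had 8.01, 6.18 and 6.64 under stable flow and 6.66, 8.87 and 6.58 under disturbed flow. A single array of each group was high, stable flow replicate 1 and disturbed flow replicate 2, and the other 4 lay within 6.18 to 6.66. The difference was 0.43 with an interval of -1.33 to 2.19 (SE 0.75, limma adjusted p = 0.917), and -0.31 without disturbed flow replicate 2. It was 0.04 without stable flow replicate 2 and 1.02 without stable flow replicate 1.

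**Figure D3:**
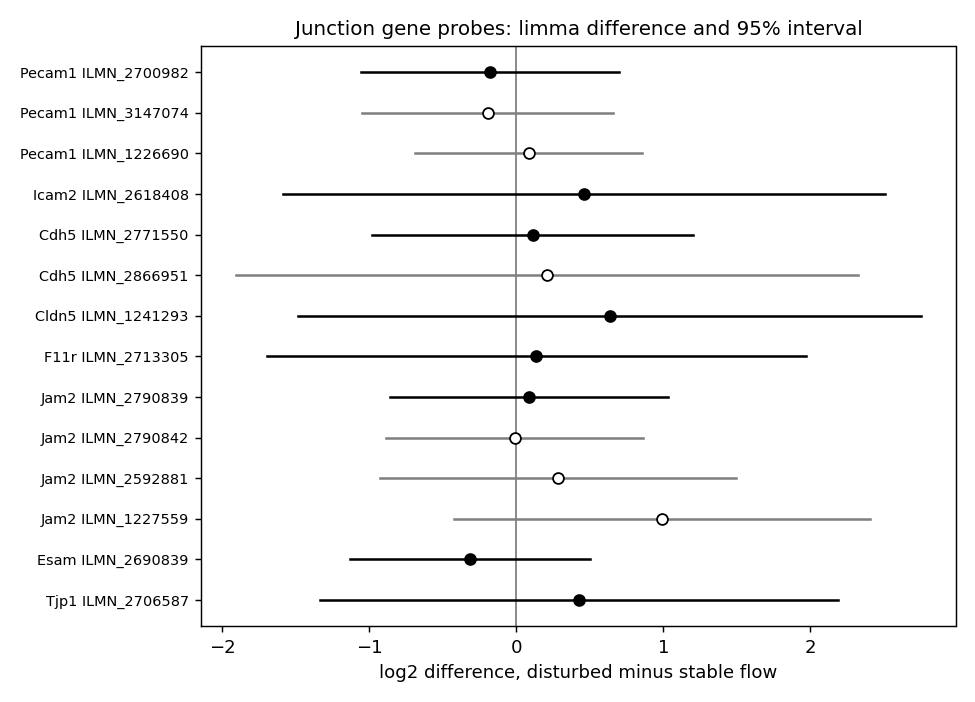
Log2 difference, disturbed minus stable flow, of each of the 14 tested junction gene probes with its 95% interval from limma; filled points are leading probes and open points the other probes of a gene. Every interval includes 0, and the point farthest from 0 is Jam2 ILMN_1227559 at 0.99.

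Among themselves the 8 genes did not share 1 pattern over the arrays. Stable flow replicate 2 was the lowest array for 5 of the 8 leading probes (Icam2, Cdh5, Cldn5, F11r and Tjp1), and for 50.2% of all tested probes. Pecam1 and Esam were lowest on disturbed flow replicate 3 and Jam2 on disturbed flow replicate 2. The highest array was stable flow replicate 1 for 4 genes, disturbed flow replicate 3 for 2, and stable flow replicate 3 and disturbed flow replicate 2 for 1 gene each. The SD over all 6 arrays was 0.32 for Esam, 0.35 for Pecam1, 0.40 for Jam2 and 0.53 for Cdh5, below the median of 0.57 over all tested probes. It was 1.04 for Tjp1, 1.07 for F11r, 1.24 for Icam2 and 1.31 for Cldn5. Icam2, F11r and Cldn5 are the 3 genes whose leading probe was not above background on stable flow replicate 2. Cdh5 and Tjp1 passed only narrowly there, with detection p of 0.033 and 0.038 against 0.056 for Cldn5.

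Likeness of pattern was measured as the root mean square difference between log2 intensities over the 6 arrays, each probe centred on its own mean, among genes above background on all arrays. For Pecam1 the closest of 1536 other genes were Kctd10 (0.079), Sulf1 (0.119) and Atp5b (0.126), where the median over all genes was 0.655. Esam was 27th from Pecam1 with 0.231, whereas Jam2 (0.533), Cdh5 (0.605) and Tjp1 (0.896) were farther. For Cdh5 the closest were Dnajc6 (0.191), Plekhf2 (0.193) and Ldha (0.193), against a median of 0.806. Its distance was 0.532 to Esam, 0.605 to Pecam1, 0.608 to Jam2 and 0.755 to Tjp1. These are descriptions of 6 arrays that share their slide within a group, and a close distance among so many genes carries no test.

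The junction genes were then set beside the endothelial content of each array. This was taken as the mean log2 intensity of the 25 tested endothelial markers that are no junction members. Those markers did not move together: 19 were higher and 6 lower, from -1.28 for Edn1 to 1.64 for Plvap. In the same limma fit, 0 of the 25 markers had an adjusted p under 0.05, as did 0% of all tested probes. At an unadjusted p under 0.05 there was 1 marker, where 2.69% of all tested probes lay. A response of single markers to flow cannot be told apart from content here. Content was 6.79, 5.89 and 6.44 on stable flow replicates 1 to 3 and 6.57, 6.78 and 6.74 on disturbed flow replicates 1 to 3. Means were 6.37 ± 0.45 and 6.70 ± 0.11 (SD, n = 3 each), a difference of 0.33 (two-sided exact permutation test, p = 0.4, where 3 against 3 cannot go below 0.1). That shift was not particular to endothelial markers: the means of the tested smooth muscle and fibroblast markers differed by 0.31 and 0.35. Without stable flow replicate 2 the difference in content was 0.09. The mean over the 8 junction genes was 8.26, 6.71 and 7.997 under stable flow and 7.58, 8.06 and 7.85 under disturbed flow. Both measures were lowest on stable flow replicate 2, while disturbed flow replicate 1 was next to lowest for the junction genes and stood above stable flow replicates 2 and 3 for the markers. In such bulk RNA, fewer endothelial cells and less junction RNA per endothelial cell cannot be told apart.

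With every array centred on its endothelial content, the differences were -0.51 for Pecam1, 0.14 for Icam2, -0.22 for Cdh5, 0.31 for Cldn5, -0.19 for F11r, -0.24 for Jam2, -0.64 for Esam and 0.098 for Tjp1. The median was -0.20, with 3 genes higher and 5 lower. All tested probes had a median of -0.23 on this scale, with 33.1% higher. Esam was the 1 gene of the 8 whose groups no longer overlapped, with 2.63, 3.20 and 2.24 under stable flow and 2.13, 2.19 and 1.83 under disturbed flow relative to the array's markers. Of all tested probes, 10.4% had groups that did not overlap on that scale, 1091 lower and 208 higher. The Esam difference had an SE of 0.38 and a limma adjusted p of 0.805. Its highest centred value was on stable flow replicate 2, where only 10 of 28 endothelial markers were above background. The centring of that array thus rests largely on signals near background.

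Other cell types of the vessel wall varied between arrays as well. Smooth muscle markers above background numbered 2 of 12 on stable flow replicate 2, compared with 5 to 8 on each other array, with array means of 5.18 to 5.74 under stable and 5.64 to 6.11 under disturbed flow. Fibroblast and adventitia markers numbered 2 of 11 on stable flow replicate 2, compared with 7 to 11 elsewhere. Macrophage and monocyte markers numbered 7 of 12 on disturbed flow replicate 1 and 0 to 2 on the others, with Itgam, Cx3cr1, C1qa, Mrc1 and Fcgr1 above background on none. Disturbed flow replicate 1 was the second lowest array for Cdh5, Cldn5 and Icam2 and the second highest for Pecam1, F11r and Jam2. For Esam and Tjp1 it lay in between. The part of these cells in the junction values was not tested.

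Genes that work with the members in junctions were described as 4 lists. Cadherin partners had 6 tested of 8 genes, 4 higher and 2 lower, with a median difference of 0.14 and 0 past the test. All 6 were higher with arrays scaled to a common 75th percentile (median 0.71) and with no normalization (0.50). Of all tested probes, 60.8% and 40.4% were higher under these settings. The median was 0.34 when either stable flow replicate 1 or disturbed flow replicate 2 was left out, 0.07 when stable flow replicate 3 was, and 0.02 when disturbed flow replicate 3 was. The 2 genes of smallest unadjusted p in this list were Vcl and Ctnnd1. Vcl, the vinculin gene, differed by 0.38 (SE 0.46). Ctnnd1, which encodes p120-catenin, a binding partner of cadherin tails, differed by 0.41 (SE 0.52). Without disturbed flow replicate 2 the Vcl value was -0.02, and without disturbed flow replicate 3 that of Ctnnd1 was -0.07. Both had limma adjusted p = 0.895.

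Other tight junction proteins and scaffolds had 8 tested of 17 genes, 4 higher and 4 lower, with a median of -0.11 and 0 past the test. Cldn12, a claudin gene, had 5.74, 5.38 and 5.73 under stable flow and 4.84, 5.49 and 4.31 under disturbed flow. Only disturbed flow replicate 2 reached into the stable flow range, and the difference was -0.73 (SE 0.40, limma adjusted p = 0.890). The probe was above background on 2 arrays of each group. Ybx3, the gene of a Y-box protein that binds ZO-1, differed by 0.84 (SE 0.65), and by 0.09 without stable flow replicate 2, where it was not above background. The median of the list was 0.07 without that array, 0.03 without stable flow replicate 1, and -0.44 without stable flow replicate 3. Leaving out disturbed flow replicate 1 or 2 gave -0.01 or -0.54. It was also above 0 with 75th percentile scaling (0.16), cyclic loess (0.08), array weights (0.13) and no background correction (0.01).

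Nectins, afadin and other immunoglobulin proteins had 6 tested of 10 genes, 3 higher and 3 lower, with a median of -0.22 and 0 past the test. That median became -0.11 or -0.04 on leaving out stable flow replicate 1 or 2, and -0.68 on leaving out disturbed flow replicate 3. With no normalization the split was 1 higher and 5 lower, beside 40.4% of all tested probes higher. The median was -0.06 with 75th percentile scaling and -0.05 with cyclic loess. Cd99l2, a relative of the leukocyte transmigration protein CD99, had 5.97, 6.32 and 5.07 against 5.16, 5.19 and 5.00. The disturbed flow arrays agreed closely, and stable flow replicate 3 lay among them (difference -0.67, SE 0.41, limma adjusted p = 0.890, and -0.43 without stable flow replicate 2). Mcam, which encodes the adhesion molecule CD146, differed by -0.53 (SE 0.35) with the same adjusted p.

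Connexins of gap junctions had all 4 genes tested, 1 higher and 3 lower, with a median of -0.28 and 0 past the test. Gja5, a connexin gene of arterial endothelium, had 10.48, 9.05 and 9.75 against 9.42, 9.27 and 9.32. Its difference of -0.42 (SE 0.43, limma adjusted p = 0.890) was -0.07 without stable flow replicate 1, -0.77 without stable flow replicate 2 and 0.68 with arrays scaled to a common 75th percentile. Gjc1, another connexin gene, differed by -0.45 (SE 0.69), and by 0.08 without stable flow replicate 1. With the 75th percentile scaling, the median of the connexins was 0.02 (2 higher, 2 lower). All 4 were lower with cyclic loess (median -0.30), no background correction (-0.17), array weights (-0.43) and centring on the endothelial markers (-0.61). Of all tested probes, 51.7%, 57.1%, 52.2% and 33.1% were higher under these settings, in that order. Leaving out stable flow replicate 1 gave a median of -0.03. Leaving out stable flow replicate 2 gave -0.53 with all 4 lower, beside 48.6% of all tested probes higher.

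**Figure D4:**
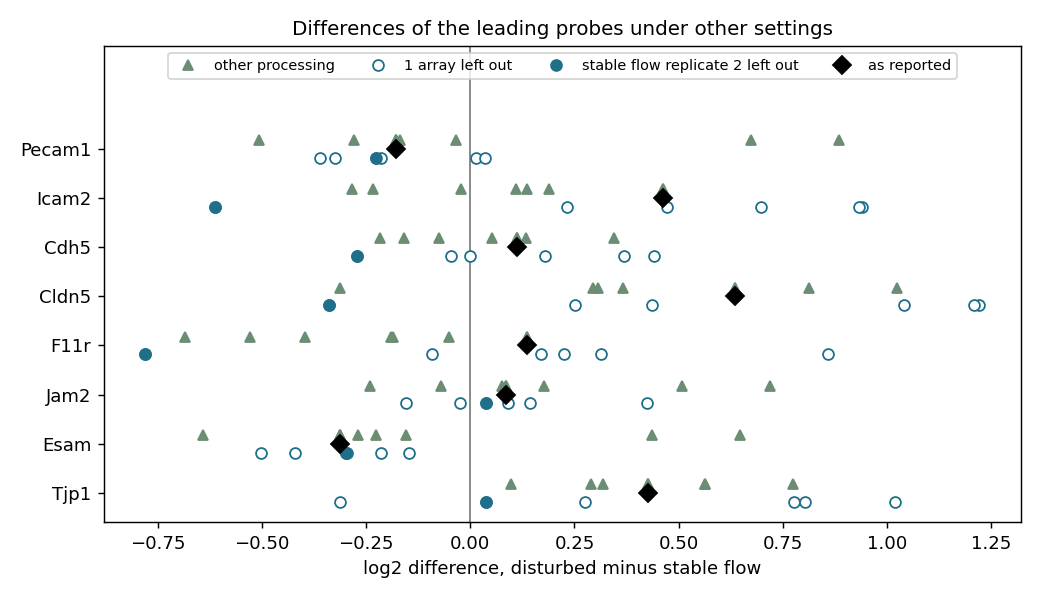
Log2 difference, disturbed minus stable flow, of the leading probe of each junction gene as reported (diamonds), with 1 array left out (circles, filled for stable flow replicate 2) and under the other processing choices except the matrix columns (triangles). For Icam2, Cdh5, Cldn5 and F11r the filled circle lies below 0 while the diamond lies above 0.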

How the data were processed

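The deposited table gives 1 signal intensity per probe and array, neither background-subtracted nor normalized per the file headers and values, and a deposited detection p-value beside it. GenomeStudio 2011.1 appears in the submitters' processing notes without its settings. A series matrix, a second set of intensity values deposited by the authors, was used only as an alternative (log2 of the value, floored at 0, plus 16).

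Signals were processed with neqc in limma 3.58.1 (R 4.3.3; normexp from detection p, offset 16, quantile, log2). A probe was tested if its detection p was under 0.05 on 3 or more of the 6 arrays, which left 12546. Tests were two-sided, from lmFit and eBayes, with p-values adjusted over all tested probes by Benjamini-Hochberg. Precision is limited by the number of arrays, and the median SE of a log2 difference was 0.45. Genes were named from the platform annotation and brought up to date by gene identifier. It gave 1 symbol to 34885 probes, several to 18 and none to 10378. The tested probe with the highest mean log2 intensity leads its gene.

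Named were all member probes, the 2 genes of smallest p in each of 4 partner lists, and the 3 genes closest in pattern to Pecam1 and to Cdh5. Members and lists were chosen with earlier results of these data known. Another partner list is not reported here. Coordinates and probe sequences were not used here.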

Additional observations from a re-analysis of the deposited data

How the results depend on the processing

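Under the 16 alternatives run, limma called 0 probes and 0 junction probes. Probes at an unadjusted p under 0.05 numbered 338 as reported and between 15 (no normalization between arrays) and 2097 (no filter on dim probes) under the alternatives. The slide as a block was not run, since each described group lies on 1 slide. The median difference over the 8 junction genes, 0.12 as reported, was 0.68 with arrays scaled to a common 75th percentile. It ranged from -0.28 to 0.31 when single arrays were left out. The difference in endothelial content, 0.33 as reported, was -0.35 with the series matrix columns as named, 0.0068 with detection required on all 6 arrays (9 markers left), 0.16 with no background correction, 0.19 with cyclic loess and 0.52 with arrays scaled to a common 75th percentile, and ranged from 0.09 to 0.50 when single arrays were left out. Replicate numbers do not pair the samples by any label, and deviations of same-numbered arrays from their group means correlated at -0.035, -0.074 and -0.085 over probes. Those of differently numbered arrays correlated at -0.064 to 0.114. With so few arrays per group, these correlations cannot decide whether samples were paired. With the replicate number as a block the median was 0.12 and the endothelial content 0.33, with 0 probes called.

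Values of an opposite sign to those reported, whose cause was not tested, are given by setting, for a gene's leading probe unless another is named. Arrays scaled to a common 75th percentile had 0.88 for Pecam1, 0.76 for Pecam1 ILMN_3147074, -0.018 for Cdh5 ILMN_2866951, -0.19 for F11r, 0.54 for Jam2 ILMN_2790842, 0.65 for Esam, 0.68 for Gja5 and 0.11 for Gjc1. Cyclic loess gave -0.23 for Icam2, -0.075 for Cdh5, -0.22 for Cdh5 ILMN_2866951, -0.53 for F11r and 0.063 for Jam2 ILMN_2790842. With no normalization there were 0.67 for Pecam1, 0.55 for Pecam1 ILMN_3147074, -0.17 for Pecam1 ILMN_1226690, -0.021 for Icam2, -0.23 for Cdh5 ILMN_2866951, -0.40 for F11r, 0.33 for Jam2 ILMN_2790842, -0.0078 for Jam2 ILMN_2592881, 0.44 for Esam and 0.47 for Gja5. No background correction gave -0.0089 for Cdh5 ILMN_2866951, -0.052 for F11r and 0.0049 for Jam2 ILMN_2790842. Array weights gave 0.059 for Pecam1 ILMN_3147074, -0.28 for Icam2, -0.16 for Cdh5, -0.31 for Cldn5, -0.68 for F11r, -0.070 for Jam2 and -0.0064 for Ctnnd1. Centring on the endothelial markers gave -0.24 for Pecam1 ILMN_1226690, -0.22 for Cdh5, -0.12 for Cdh5 ILMN_2866951, -0.19 for F11r, -0.24 for Jam2 and -0.045 for Jam2 ILMN_2592881.

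The matrix columns as named, which exchange the groups, gave 0.18 for Pecam1, 0.20 for Pecam1 ILMN_3147074, -0.18 for Pecam1 ILMN_1226690, -0.51 for Icam2, -0.11 for Cdh5, -0.28 for Cdh5 ILMN_2866951, -0.63 for Cldn5, -0.15 for F11r, -0.088 for Jam2, 0.0089 for Jam2 ILMN_2790842, -0.28 for Jam2 ILMN_2592881, -1.02 for Jam2 ILMN_1227559, 0.31 for Esam and -0.43 for Tjp1. For the partners they gave -0.38 for Vcl, -0.41 for Ctnnd1, 0.84 for Cldn12, -0.94 for Ybx3, 0.66 for Cd99l2, 0.56 for Mcam, 0.42 for Gja5 and 0.45 for Gjc1.

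When single arrays were left out, the ranges that crossed 0 were -0.36 to 0.035 for Pecam1, -0.43 to 0.050 for Pecam1 ILMN_3147074, -0.0082 to 0.23 for Pecam1 ILMN_1226690, -0.61 to 0.94 for Icam2, -0.27 to 0.44 for Cdh5, -0.64 to 1.09 for Cdh5 ILMN_2866951, -0.34 to 1.22 for Cldn5, -0.78 to 0.86 for F11r, -0.15 to 0.42 for Jam2, -0.27 to 0.22 for Jam2 ILMN_2790842, -0.050 to 0.71 for Jam2 ILMN_2592881, -0.31 to 1.02 for Tjp1, -0.025 to 0.63 for Vcl, -0.067 to 0.69 for Ctnnd1 and -1.06 to 0.080 for Gjc1. Signals near background on stable flow replicate 2 limit what Icam2, Cldn5, F11r, Cdh5 and Tjp1 can show.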
